A study of Mus musculus with 4 samples.

Results

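The enzymes that make sterols and fatty acids, with the regulators and transporters that adjust cellular lipid, were followed as a set of 35 genes in CD11b+ splenocytes of mice. The genes were taken by symbol from a list of the pathway. Of these, 34 had a probe set named for them alone, out of 18193 such genes on the array, and Acat2, a thiolase that supplies acetoacetyl-CoA, had none and was not analysed here. Among the 34 were 17 sterol synthesis enzymes, 4 genes of sterol sensing, 10 genes of fatty acid synthesis and desaturation and 3 genes of the liver X receptor (LXR) and sterol efflux. No filter on low values was applied, so all 34 were tested.

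The study compared mice exposed repeatedly to social threat, labelled as a high-threat environment, with control mice, labelled as low-threat. Each group had 2 pools, each pool held RNA of 5 mice, and each pool was read on 1 Affymetrix MOE430 2.0 array. CD11b, encoded by Itgam, marks neutrophils, monocytes, macrophages and part of the dendritic, NK and B cells, and the isolated fraction was profiled as bulk RNA. Strain, sex, age, the length of the exposure and the method of cell isolation are not given in the sources used here. The values are log2 expression made by RMA, with array medians from 4.41 to 4.43. Because mice were pooled, the p-values rest on the spread between pools, of each probe set and of all probe sets together. That spread does not show the spread between single mice.

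Cells build cholesterol from acetyl-CoA through mevalonate, isoprenoid units, squalene and lanosterol, and they build fatty acids from the same acetyl-CoA through malonyl-CoA. Both branches are driven by the SREBP transcription factors, which SCAP carries out of the endoplasmic reticulum when sterol is low and which INSIG proteins hold back when sterol is high. LXR responds to oxidised sterols and turns on the exporters ABCA1 and ABCG1. In myeloid cells these genes serve membrane growth, lipid storage and the disposal of lipid from engulfed cells.

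The promoters of the sterol enzymes shared a sequence feature that played no part in how the genes were listed. RefSeq promoter windows of build GRCm38.p6 were held for 28 of the 35 genes, and the 250 bases before each start were searched on both strands. The letters CCAAT, the recognition motif of the factor NF-Y that often sits beside SREBP sites, were in 14 of 15 sterol synthesis enzymes, against 37.5% of all 27025 genes with such a window. They were in 3 of 4 sterol sensing genes, 3 of 7 fatty acid genes and 0 of 2 efflux genes. Of the enzymes with a window, it was in all 6 that rose, all 3 that fell and all 5 that were not called. Fdps and Fdft1, which rose, and Sqle, which was not called, had no window. The motif is therefore shown in a pair of genes that rose (Msmo1 and Nsdhl), a pair that fell (Cyp51 and Sc5d) and in Hmgcs1, which was not called. Capitals mark CCAAT or its complement ATTGG, and in Hmgcs1 also TCACNCCAC, the core of a sterol regulatory element.
Msmo1, chr8:64733579-64733828, minus strand: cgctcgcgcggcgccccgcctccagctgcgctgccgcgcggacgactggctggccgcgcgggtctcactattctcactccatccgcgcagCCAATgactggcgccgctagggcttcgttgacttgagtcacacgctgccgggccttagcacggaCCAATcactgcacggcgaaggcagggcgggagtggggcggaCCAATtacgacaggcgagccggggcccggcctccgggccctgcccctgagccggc
Nsdhl, chrX:72918271-72918520, plus strand: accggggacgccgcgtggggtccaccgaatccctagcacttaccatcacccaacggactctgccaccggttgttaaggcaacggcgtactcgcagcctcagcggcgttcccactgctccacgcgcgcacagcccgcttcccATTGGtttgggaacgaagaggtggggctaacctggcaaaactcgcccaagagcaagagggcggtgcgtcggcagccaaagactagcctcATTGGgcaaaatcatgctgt
Cyp51, chr5:4104698-4104947, minus strand: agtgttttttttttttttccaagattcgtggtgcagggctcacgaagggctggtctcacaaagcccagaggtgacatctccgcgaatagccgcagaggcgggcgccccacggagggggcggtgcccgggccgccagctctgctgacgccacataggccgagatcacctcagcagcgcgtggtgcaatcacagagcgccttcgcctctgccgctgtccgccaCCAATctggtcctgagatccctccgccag
Sc5d, chr9:42264301-42264550, minus strand: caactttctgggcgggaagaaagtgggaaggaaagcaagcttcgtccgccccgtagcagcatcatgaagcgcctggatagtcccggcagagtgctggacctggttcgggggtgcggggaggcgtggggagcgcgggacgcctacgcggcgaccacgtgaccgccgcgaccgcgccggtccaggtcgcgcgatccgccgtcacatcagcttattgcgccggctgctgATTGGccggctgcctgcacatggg
Hmgcs1, chr13:119690101-119690350, plus strand: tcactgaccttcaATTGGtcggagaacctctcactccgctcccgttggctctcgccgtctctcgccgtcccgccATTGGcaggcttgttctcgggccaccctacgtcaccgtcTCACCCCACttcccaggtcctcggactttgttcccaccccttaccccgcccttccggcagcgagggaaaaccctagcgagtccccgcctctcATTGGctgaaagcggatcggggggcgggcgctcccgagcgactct
Msmo1 and Hmgcs1 each held 3 such motifs, Nsdhl 2, and Cyp51 and Sc5d 1 each, the last pair 29 and 24 bases before the start. The sterol element letters were found in 1 of the 15 sterol enzymes, Hmgcs1, 137 bases before its start, and in 1.22% of all genes. The letters CACGTG, an E-box that SREBP can also bind, were in 3 of 15 sterol enzymes against 6.86% of all genes. A match of letters is a description and not a binding site, and no binding was measured here.

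Social threat was compared with control for each gene by its brightest probe set across the 4 pools, using limma fitted over all 45037 probe sets with Benjamini-Hochberg adjustment. A gene is said to have risen or fallen where its adjusted p was under 0.05. Of the 34 genes, 10 rose, 9 fell and 15 were not called. The background of calls was high: 21.1% of all genes were called, and 33.3% of the 11010 genes whose level exceeded the array medians, as that of all 34 genes did. Their median absolute log2 difference was 0.28, against 0.18 for genes above the array medians. Pools did not overlap between the groups for 31 of the 34 genes, against 58.2% of all genes and 71.2% of genes above the array medians. One gene, Fdps, differed by at least 2-fold, and 3 (Fdps, Nsdhl and Scd1) by at least 1.5-fold.

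**Figure D1:**
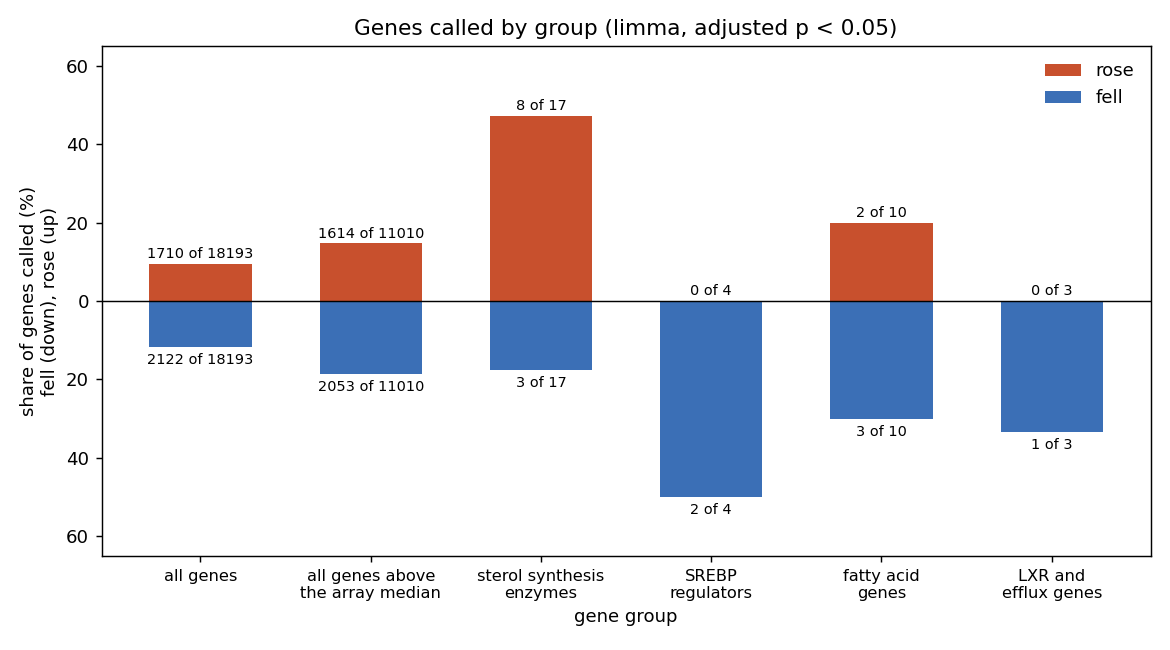
Share of genes called higher (upward bars) or lower (downward bars, both in percent) in social threat by limma, for all genes, for genes above the array medians and for the 4 gene groups, with counts at the bars. Sterol synthesis enzymes had more rises than falls (8 and 3 of 17), and each of the other groups had more falls than rises.

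Of the 17 sterol synthesis enzymes, 8 rose and 3 fell, with a median log2 difference of 0.19, against -0.02 for all genes and -0.04 for genes above the array medians. With each gene as the mean of its probe sets that median was 0.09, with 7 rises and 3 falls. The rises lay at steps from mevalonate kinase to sterol isomerase. Among all genes 9.4% rose and 11.7% fell, and among genes above the array medians 14.7% and 18.6%. Fdps, farnesyl diphosphate synthase, which joins isoprenoid units into the precursor of sterols, ubiquinone and protein prenyl groups, rose most. It stood at 8.23 and 8.22 in the control pools and at 9.514 and 9.502 in the social threat pools. The pools of each group lay close together and the groups were far apart, with a 2.43-fold rise (log2 difference 1.28, SE 0.06, 95% interval 1.14 to 1.42, limma adjusted p = 1.32e-06). By size Fdps ranked 217 from the top among the 18193 genes.

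**Figure D2:**
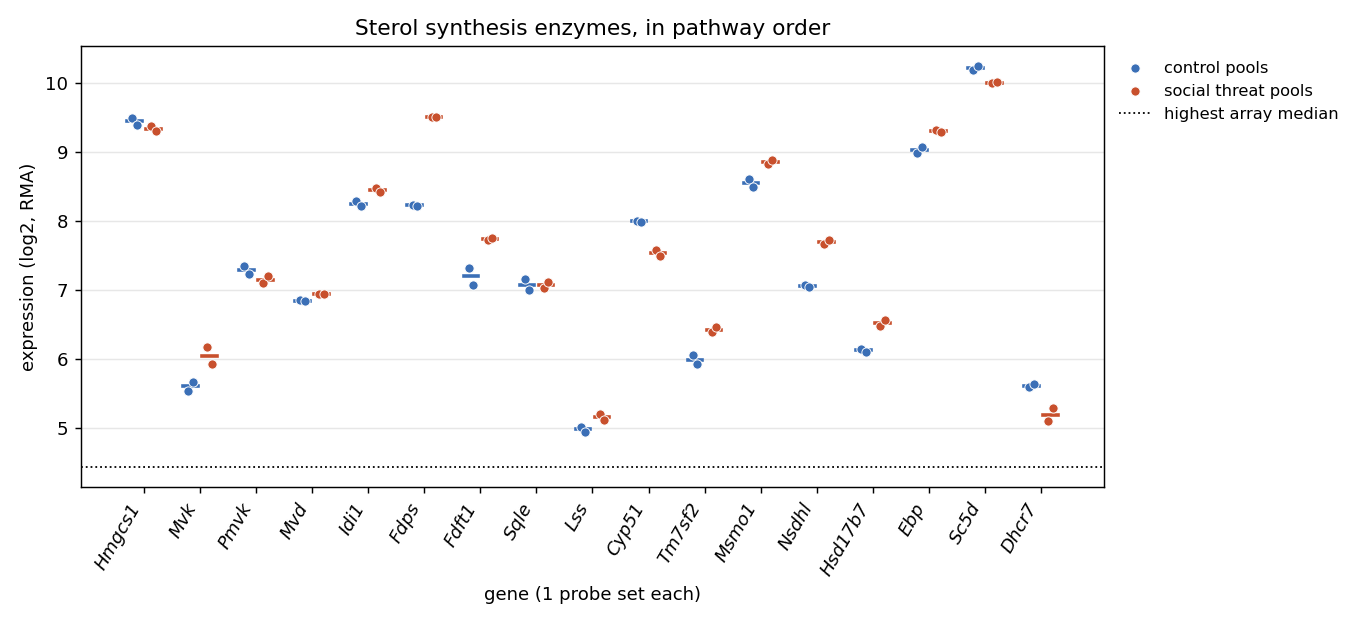
Log2 expression of the 17 sterol synthesis enzymes in pathway order, with 1 point per pool, a short line at each group mean and a dotted line at the highest array median of 4.43. The social threat pools lie above the control pools for 11 genes, below them for 5 and overlap them for Sqle (all genes: 26.1% above and 32.1% below).

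Of the 5 steps before Fdps, Mvk was called and the others were not. Hmgcs1, the synthase that forms HMG-CoA, stood at 9.49 and 9.39 in controls and 9.38 and 9.30 under social threat, and was not called (log2 difference -0.11, 95% interval -0.25 to 0.03, adjusted p = 0.341). None of its 5 probe sets was called. Mvk, mevalonate kinase, rose from 5.54 and 5.67 to 6.17 and 5.93 (0.45, SE 0.12, limma adjusted p = 0.0388), and its second probe set differed by 0.01 and was not called. The kinase Pmvk and the decarboxylase Mvd, which complete the isoprenoid unit, were not called, with intervals of -0.35 to 0.07 and -0.11 to 0.30. Idi1, the isomerase of isoprenoid units, stood at 8.29 and 8.22 in controls and 8.47 and 8.41 under social threat. It missed the threshold by this probe set (0.19, SE 0.07, adjusted p = 0.125), while its other one rose by 0.47 (SE 0.11, limma adjusted p = 0.0204). In all, 2 of the 6 genes from Hmgcs1 to Fdps rose and 0 fell, where 33.3% of genes above the array medians were called.

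At the step that commits isoprenoids to sterols, Fdft1, squalene synthase, rose from 7.32 and 7.07 in controls to 7.72 and 7.75 (0.54, SE 0.10, limma adjusted p = 0.00526). A second probe set of Fdft1 rose by 0.48 (SE 0.09). Sqle, squalene epoxidase, a rate-limiting enzyme of the pathway, overlapped between the groups, at 7.152 and 6.998 in controls and 7.022 and 7.115 under social threat. Its difference was -0.01 with an interval of -0.23 to 0.21, which does not reach the difference of Fdft1. Lss, which closes squalene epoxide into lanosterol, was not called from a dim level of 5.01 and 4.95 (0.18, 95% interval -0.09 to 0.45).

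All 8 measured enzymes after lanosterol were called, 5 higher and 3 lower, where 14.7% of genes above the array medians rose and 18.6% fell. Cyp51, the demethylase that opens this stretch, fell from 8.002 and 7.985 to 7.581 and 7.498 (-0.45, SE 0.08, limma adjusted p = 0.00389). Tm7sf2, a sterol reductase acting on its product, rose from 6.06 and 5.93 to 6.40 and 6.46 (0.43, SE 0.11, adjusted p = 0.0221 in limma). The enzymes that strip the methyl groups at carbon 4, Msmo1, Nsdhl and Hsd17b7, then all rose. Nsdhl, their dehydrogenase, rose from 7.08 and 7.04 to 7.67 and 7.73, a 1.56-fold rise with pools of a group close together (0.64, SE 0.08, limma adjusted p = 0.000747). Msmo1, the oxidase, rose from 8.615 and 8.499 to 8.819 and 8.877 (0.29, SE 0.07), and Hsd17b7, the ketoreductase, from 6.15 and 6.10 to 6.47 and 6.57 (0.39, SE 0.10). As the mean of its 2 probe sets Msmo1 differed by 0.09 and was not called (limma adjusted p = 0.466). Its second probe set, at a mean of 3.62, lay below the array medians. For Hsd17b7, 3 of 4 probe sets rose, by 0.39 to 0.52.

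The last steps divided. Ebp, the sterol isomerase also known as emopamil-binding protein, rose from 8.99 and 9.08 to 9.32 and 9.29 (0.27, SE 0.06, limma adjusted p = 0.0156). Sc5d, the desaturase that follows it, fell from 10.193 and 10.246 to 9.998 and 10.008 (-0.22, SE 0.05, limma adjusted p = 0.0132). Another probe set of Sc5d fell by 0.45. Dhcr7, the reductase that yields cholesterol, fell from 5.59 and 5.63 to 5.10 and 5.29 (-0.42, SE 0.12, limma adjusted p = 0.0459). These differences are small, with Ebp at 1.21-fold, Sc5d at 1.16-fold and Dhcr7 at 1.34-fold.

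The calls of the sterol enzymes rested on having both social threat pools. Without social threat pool 1 the count fell from 11 to 3 (Fdps, Nsdhl and Cyp51), and without social threat pool 2 to 2 (Fdps and Nsdhl), in fits whose calls over all probe sets dropped too, from 7099 to 3341 and 3171. Adjusted p then rose to at most 0.367 for Mvk, 0.0911 for Fdft1, 0.23 for Tm7sf2, 0.261 for Msmo1 and 0.301 for Hsd17b7, and to 0.205 for Ebp, 0.169 for Sc5d, 0.363 for Dhcr7 and 0.0988 for Cyp51 in limma. Mvk also lost its call without control pool 1 (0.0978), and Dhcr7 without either control pool (0.0678 and 0.084). All 11 kept their direction in these fits.

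Of the 4 genes of sterol sensing, 0 rose and 2 fell, where 14.7% of genes above the array medians rose and 18.6% fell. The median of the 4 genes was -0.21, or -0.11 with each gene as the mean of its probe sets. The SREBP genes themselves were not called. Srebf2, whose protein favours sterol genes, stood at 8.78 and 8.71 in controls and at 8.85 in both social threat pools (0.11, 95% interval -0.04 to 0.25). Srebf1, whose protein favours fatty acid genes, stood at 8.27 and 8.11 and then at 8.09 and 8.10 (-0.10, 95% interval -0.28 to 0.08).

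Scap, the escort of SREBP, fell from 8.20 and 8.08 to 7.74 and 7.79 (-0.37, SE 0.08, limma adjusted p = 0.0113). Insig1, which holds the escort back and is itself a target of SREBP, fell from 7.75 and 7.86 to 7.51 and 7.46 (-0.32, SE 0.08, limma adjusted p = 0.0303). For both, the social threat pools lay below the control pools, as for 32.1% of all genes and 40.5% of those above the array medians. Both calls were lost without social threat pool 1 (limma adjusted p = 0.166 and 0.195) and without social threat pool 2 (0.115 and 0.287), and that of Insig1 also without control pool 2 (0.0558). Averaged over its probe sets Scap differed by -0.12 and was not called (adjusted p = 0.377 in limma). Its second probe set, at a mean of 3.51, below the array medians, differed by 0.13 and was not called.

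The fatty acid branch went both ways. Of 10 genes, 2 rose, 3 fell and 5 were not called, where 14.7% of genes above the array medians rose and 18.6% fell. The median difference of the 10 genes was 0.04. Leaving out control pool 1 or 2 took that median to 0.15 or -0.09, so its sign rests on single pools. Among the chain-building enzymes and among the desaturases 1 rose and 1 fell, and among the elongases 0 rose and 1 fell. Scd1 and Scd2, which encode stearoyl-CoA desaturases that make monounsaturated fatty acids, were called in opposite directions. Scd1 fell from 9.38 and 9.21 to 8.40 and 8.37, a 1.88-fold fall (-0.91, SE 0.07, limma adjusted p = 3.73e-05), and ranked 191 from the bottom of the 18193 genes. Scd2 rose from 7.85 and 7.79 to 8.33 and 8.37, a 1.44-fold rise (0.53, SE 0.07, limma adjusted p = 0.00111).

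Other probe sets moved the same way. The second probe set of Scd1 fell by 1.03 (SE 0.10), and a second one of Scd2 rose by 0.36 (SE 0.09), while the last of Scd2 differed by 0.50 (SE 0.20) without a call. In the control pools that last probe set read 4.66 and 5.38, a gap wider than its difference between groups. Scd1 and Scd2 kept their calls in every fit that left out 1 pool, as Fdps, Nsdhl and Elovl5 did. In these fits the difference ranged from -0.9985 to -0.8225 for Scd1 and from 0.496 to 0.554 for Scd2.

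**Figure D3:**
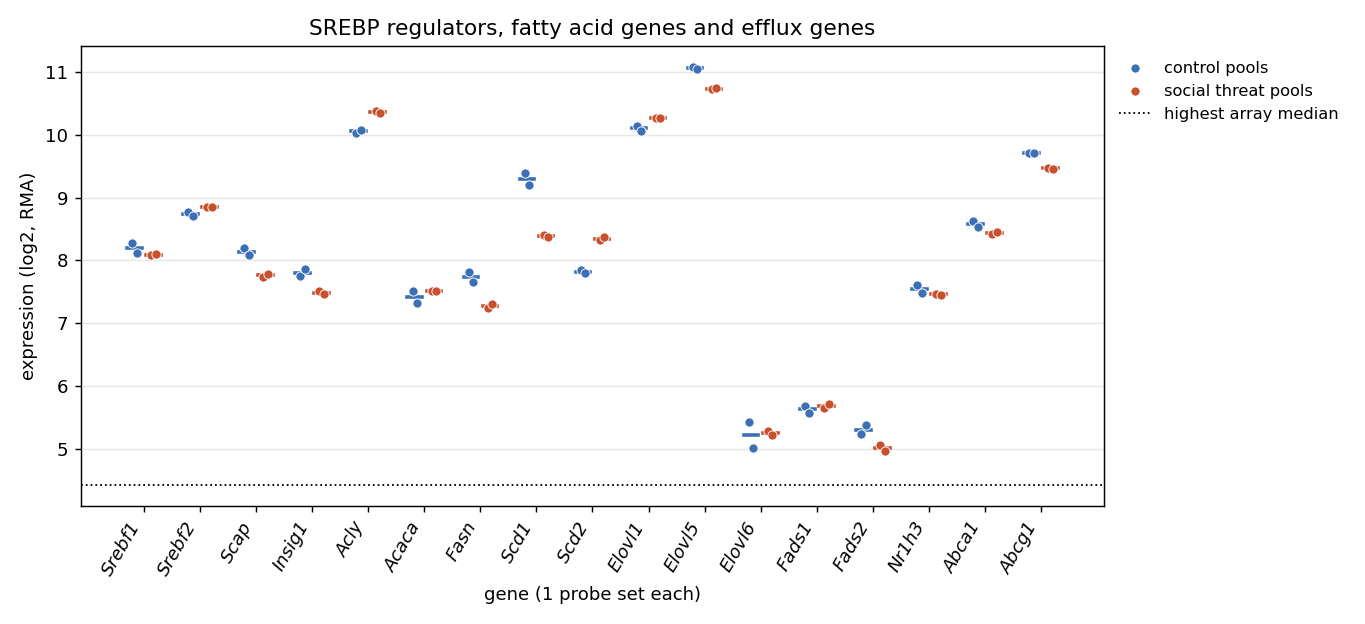
Log2 expression of the 4 sterol sensing genes, the 10 fatty acid genes and the 3 efflux genes, with 1 point per pool, short lines at group means and a dotted line at the highest array median of 4.43. Scd1 is lower and Scd2 higher in both social threat pools, and all 3 efflux genes lie lower.

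Along the chain that builds palmitate, Acly, which cuts citrate to cytosolic acetyl-CoA, rose from 10.03 and 10.07 to 10.38 and 10.34 (0.31, SE 0.05, limma adjusted p = 0.0018). A second of its 6 probe sets rose by 0.30, and 3 of the other 4 lay below the array medians. Acaca, the carboxylase that makes malonyl-CoA, was not called, at 7.51 and 7.32 in controls and 7.52 in both social threat pools (0.10, 95% interval -0.11 to 0.31). Fasn, fatty acid synthase, fell from 7.82 and 7.66 to 7.24 and 7.31 (-0.47, SE 0.09, limma adjusted p = 0.00689). The gap between the groups exceeded that between the pools of a group for Acly and Fasn.

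Among the elongases, Elovl5, which acts on polyunsaturated chains, fell from 11.08 and 11.04 to 10.73 and 10.74 (-0.33, SE 0.04, limma adjusted p = 0.000376), and its second probe set fell by 0.25. Elovl1, which extends saturated chains to very long ones, stood at 10.14 and 10.06 and then at 10.26 and 10.27 (0.16, SE 0.05). It lay just outside the threshold (limma adjusted p = 0.0523) and passed it without control pool 1 (0.0152). Elovl6, which extends palmitate, overlapped between groups, and its control pools read 5.44 and 5.02 (0.02, 95% interval -0.32 to 0.37).

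Fads1 and Fads2, the desaturases of polyunsaturated synthesis, were dim and not called. Fads1 stood between 5.58 and 5.71 in all 4 pools, and Fads2 at 5.24 and 5.38 in controls and 5.07 and 4.98 under social threat (-0.29, 95% interval -0.56 to -0.01, adjusted p = 0.17). In this branch 3 genes were called without social threat pool 1 (Scd1, Scd2 and Elovl5), where Acly reached a limma adjusted p of 0.0598 and Fasn 0.119. Fasn also missed the threshold without social threat pool 2 (0.0759).

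All 3 genes of LXR and sterol efflux lay lower in social threat. Of these 1 was called, where 33.3% of genes above the array medians were. Abcg1, which exports sterol to lipoproteins, fell from 9.71 in both control pools to 9.48 and 9.46 (-0.24, SE 0.05, limma adjusted p = 0.0121), with a difference of -0.29 in its second probe set that was not called. Leaving out social threat pool 1 or 2 took its limma adjusted p to 0.142 or 0.177. Abca1, the exporter that loads apolipoprotein A, stood at 8.63 and 8.53 and then at 8.42 and 8.46 (-0.14, 95% interval -0.30 to 0.02). Nr1h3, which encodes LXR alpha, stood at 7.62 and 7.49 and then at 7.47 and 7.45 (-0.09, 95% interval -0.29 to 0.11). For all 3 both social threat pools lay below both control pools, as for 32.1% of all genes and 40.5% of those above the array medians.

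**Figure D4:**
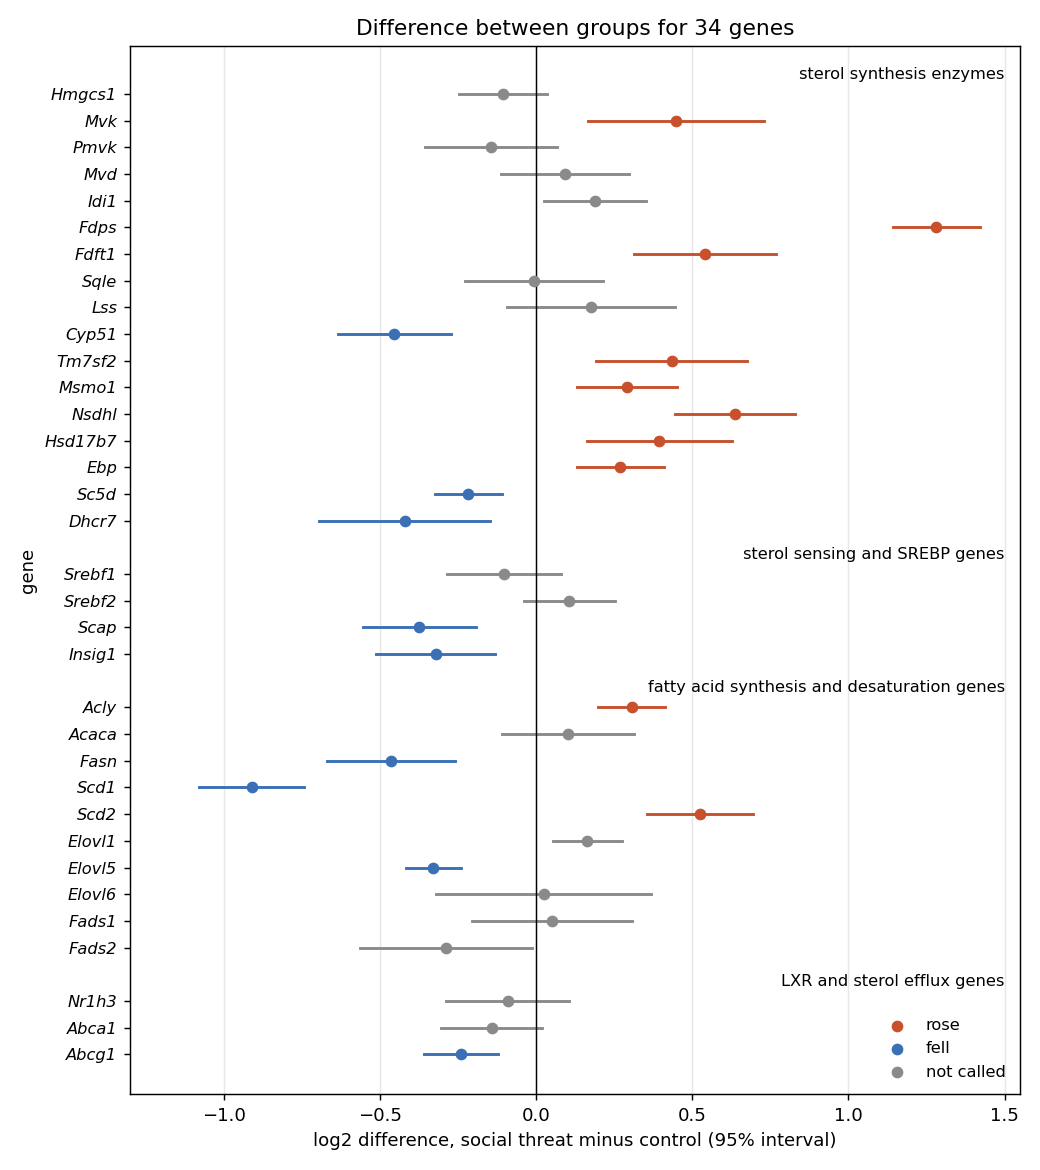
Log2 difference, social threat minus control, with its 95% interval from limma for the 34 genes, in 4 groups and coloured by call. Fdps at 1.28 and Scd1 at -0.91 are the extremes, and the intervals of Fdps, Nsdhl, Scd1 and Scd2 are the farthest from 0.

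Probe sets that share a gene symbol were read beside the brightest one. They are not repeats of 1 measurement, as the 2 of Mvk differed between groups by 0.45 and 0.01. The 34 genes had 78 probe sets, and 24 genes had more than 1. For 7 genes more than 1 probe set was called (Acly, Elovl5, Fdft1, Hsd17b7, Sc5d, Scd1 and Scd2), and for 0 genes were probe sets called in both directions. Of the 59 probe sets above the array medians 27 were called, and of the 19 below them 1, where 15.8% of all probe sets, dim ones included, were. A fit limited to the 22518 probe sets with a mean above the median of all probe set means called 7452 of them. Fdps had a single probe set above the medians. The other, at a mean of 2.81, differed by -0.07 and was not called, which leaves its rise on 1 reading. Nsdhl, Tm7sf2, Ebp, Dhcr7, Insig1 and Fasn were among the 10 genes with 1 probe set.

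**Figure D5:**
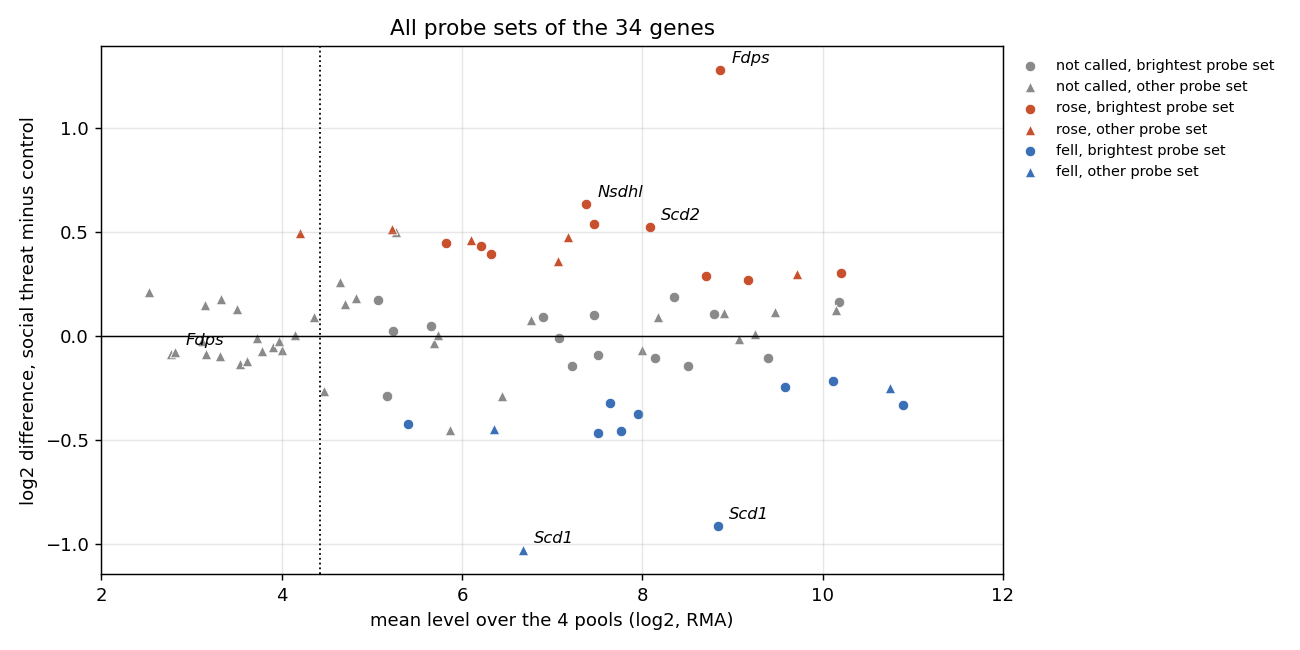
Log2 difference (social threat minus control) against mean log2 level for the 78 probe sets of the 34 genes, circles for the brightest probe set of each gene, triangles for the others, and a dotted line at the highest array median of 4.43. Called probe sets lie almost wholly to the right of the line, with 1 exception among the 19 to its left.

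Other genes of the same pathways, listed beside the members, gave a mixed picture as well. Among all genes 21.1% were called, and among those above the array medians 33.3%. Of 11 further sterol genes, 7 had a probe set named for them alone, and of these 0 rose and 1 fell. That was Ggps1, which makes the geranylgeranyl chain from the product of Fdps, and it fell from 7.54 and 7.35 to 6.97 in both social threat pools (-0.47, SE 0.10, limma adjusted p = 0.00892). Without social threat pool 1 or 2 it was not called (0.112 and 0.115), nor as the mean of its 4 probe sets (0.0743). Insig2, Mbtps1, Mbtps2, Stard4, Mylip and Rxra were not called, with differences from -0.23 to 0.09.

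Of 12 further fatty acid genes, 4 rose and 1 fell. The share called was 41.7%, against 21.1% of all genes and 33.3% of those above the array medians. Elovl7, an elongase of very long chains, rose from 5.19 and 5.15 to 6.12 and 6.45 (1.11, SE 0.14, limma adjusted p = 0.000435). Tecr, the reductase that completes each elongation cycle, rose from 10.30 and 10.33 to 10.92 in both social threat pools (0.60, SE 0.04, limma adjusted p = 1.2e-05). Mid1ip1, which promotes polymerisation of acetyl-CoA carboxylase, rose by 0.29 (SE 0.06), and Lpcat3, which puts polyunsaturated chains into phospholipids, by 0.25 (SE 0.07). Lpin1, a phosphatidate phosphatase and SREBP target, fell from 7.55 and 7.60 to 6.84 and 6.86 (-0.73, SE 0.09, limma adjusted p = 0.000387). Without social threat pool 1 or 2, Mid1ip1 (0.0688 and 0.11) and Lpcat3 (0.334 and 0.216) lost their calls.

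Cell type markers differed between the same pools. The RNA came from mixed cells, so fewer cells of a type and less RNA per cell cannot be told apart. For scale, 9.4% of all genes rose and 11.7% fell, or 14.7% and 18.6% of genes above the array medians. The mean log2 level of 11 cell cycle genes, of which 10 rose, was 7.07 to 7.22 in controls and 8.92 to 8.97 under social threat. That of 6 azurophilic granule genes of neutrophil precursors, all of which rose, went from 6.45 to 6.60 up to 10.43 to 10.51, 6 of 8 erythroid genes rose, and of 6 mature neutrophil genes 5 rose and 1 fell. Of 11 red pulp macrophage genes 8 fell, with list means of 10.09 to 10.15 and then 9.63 to 9.64, and all 7 dendritic cell, 6 of 7 B cell, 5 of 5 T cell, 4 of 5 NK cell and 2 of 5 monocyte genes fell. Tyms, Xcr1 and Ncr1 alone among these markers lay below the array medians. Itgam, the isolation antigen, rose by 0.88 (SE 0.13). Whether these markers have a part in the differences of the lipid genes was not tested.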

How the data were processed

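RNA of CD11b+ splenocytes was measured on 4 arrays, 2 control and 2 social threat pools of 5 mice, grouped by sample titles. The deposited log2 values were made by the authors with RMA, per the submitters' processing notes, with no version named. RMA shrinks differences at low signal and the values carry no detection calls. Nothing was normalized again. Of 45037 probe sets, 34945 had 1 symbol, 932 several and 9160 were not listed in the platform annotation. All 34 measured members matched RefSeq by Entrez ID with the same symbol. Each gene was read by its brightest probe set on average over pools.

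Groups were compared in R 4.3.3 with limma 3.58.1 (lmFit, eBayes with a variance trend, 2 residual and 7.1 prior degrees of freedom), two-sided, with Benjamini-Hochberg adjustment over 45037 probe sets and a threshold of 0.05. Intervals are 95% from that fit. The number of arrays limits the precision. The code was tested on simulated data. The members and lists were chosen with earlier results of these data known, and the promoter motifs and the comparison with genes above the highest array median were added after the values were seen. Every measured member is named, related genes with values where called, and markers as lists. Alternatives were the variance trend, a pool-number block, a low-value filter, quantile normalization, median centring, leaving out each pool, probe set means and other call rules. No batch or scan date is in the labels, so none could be fitted. Same-numbered pools deviated from their group means with a correlation of 0.05 over probe sets.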

Additional observations from a re-analysis of the deposited data

How the results depend on the processing

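Under all 11 alternatives run on single genes, Fdps, Nsdhl, Scd1 and Scd2 kept direction and call. The rule of an unadjusted p under 0.05 is among the 11 and cannot take a call away. The rule of at least 1.5-fold without overlap is not among them, and Scd2, at 1.44-fold, did not meet it. As the mean of its probe sets the rise of Fdps was 0.60 in place of 1.28. The 15 other called genes kept their direction and lost the call under at least 1 alternative. Leaving out 1 pool gave 3171 to 8721 called probe sets, 2 to 10 sterol synthesis enzymes, 0 to 2 sterol sensing genes, 3 to 6 fatty acid genes, 0 to 1 efflux genes, 0 to 2 further sterol genes and 3 to 6 further fatty acid genes. In these fits the lone pool is assumed to vary like the other group.

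Without the variance trend 4689 probe sets were called, with 7 sterol enzymes, 1 sensing gene, 3 fatty acid genes, 0 efflux genes (against 1) and 3 further fatty acid genes. In the fit over means of all probe sets per gene 4090 of 18193 genes were called, with 1 sensing gene and 0 further sterol genes. There Msmo1, Scap, Mvk (0.23, limma adjusted p = 0.0879) and Acly (0.17, limma adjusted p = 0.138) lost their calls. Idi1 and Elovl1 gained a call in that fit (limma adjusted p = 0.00592 and 0.0476). At an unadjusted p under 0.05 there were 11837 probe sets and 3 further sterol genes. By at least 1.5-fold without overlap there were 2543 probe sets, 2 sterol enzymes, 0 sensing genes, 1 fatty acid gene, 0 efflux genes, 0 further sterol genes and 3 further fatty acid genes.

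Sqle, Acaca and Elovl6, all uncalled with intervals that span 0, changed sign. Sqle went from -0.01 to 0.0067 after quantile normalization and ranged from -0.084 to 0.071 with 1 pool left out. Acaca went to -0.014 as the mean of its probe sets, and Elovl6 ranged from -0.19 to 0.23 with 1 pool left out. Pool numbers come from labels that name no shared litter or day, and with 2 pairs they share only a number. With the pool number as a block, the replicate block fit called 8168 probe sets, added Elovl1 to the called fatty acid genes (6 against 5) and changed no other call among the 34 genes. Mvk, Dhcr7, Lss, Elovl6, Fads1 and Fads2, each at a mean level under 6, had the widest intervals of the 34 genes, and of these Mvk and Dhcr7 were called.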

Other observations

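Genes that burn, take up or store fatty acids, listed after the values of the synthesis genes had been seen and therefore only described, went both ways. Of 11 uptake and storage genes, 4 rose and 5 fell, where 14.7% and 18.6% of genes above the array medians did. Lpl, lipoprotein lipase, fell from 9.65 and 9.70 in the control pools to 8.43 and 8.51 under social threat (log2 difference -1.21, SE 0.06, limma adjusted p = 2.12e-06). The fatty acid carrier genes Cd36 and Fabp4 fell by 0.67 (SE 0.06) and 0.66 (SE 0.08), Pparg, a nuclear receptor of lipid uptake, by 0.57 (SE 0.09), and Lipa, the lysosomal lipase, by 0.37 (SE 0.06). Dgat1 and Dgat2, which make triglyceride by separate enzymes, rose by 0.78 (SE 0.05) and 1.01 (SE 0.06), and the lipid droplet coat genes Plin3 and Plin2 by 0.74 (SE 0.09) and 0.18 (SE 0.04). Fabp5 and Pnpla2 were not called.

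Of 13 measured fatty acid oxidation genes, 3 rose and 1 fell, a share called of 30.8% that lies near the 33.3% of genes above the array medians. Acadl, long-chain acyl-CoA dehydrogenase, rose from 9.17 and 9.21 to 10.43 and 10.40 (1.22, SE 0.05, limma adjusted p = 6.23e-07). Cpt2 rose by 0.47 (SE 0.10) and Etfb by 0.25 (SE 0.06), while Hadh fell by 0.50 (SE 0.06). Cpt1a, the gate of the pathway, stood at 9.79 and 9.76 and then at 9.66 and 9.60 (-0.14, limma adjusted p = 0.112), short of the threshold.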
